A study of Homo sapiens with 4 samples.

Results

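The miR-29 family was read by 7 of the 737 different miRNA assays of a quantitative PCR set, chosen by name alone: miR-29a, miR-29b and miR-29c, with any number suffix and with the star that marks the less abundant arm of a hairpin. They comprise 3 guide strands and 4 opposite arms (miR-29a*, miR-29b-1*, miR-29b-2* and miR-29c*). RNA came from U2OS, a human osteosarcoma cell line, in 4 samples with 1 sample per group. The shNS group was infected with lentivirus for a control shRNA and the shDDX1 group with lentivirus for an shRNA against DDX1, a DEAD-box RNA helicase, and both were selected with puromycin at 2 ug/ml. The untreated group received no drug and the NCS group received neocarzinostatin, which cuts both strands of DNA, at 500 ng/ml for 6 hours. Per the study's title, the first pair addresses which miRNAs need DDX1 for processing of their primary transcripts. DDX1 itself was not measured on these panels, and whether the line was infected as a pool or as a clone is not given in the sources used here.

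miR-29 guide strands pair through their seed with the messenger RNAs of collagens, elastin and other matrix proteins, of the de novo DNA methyltransferases and of the survival factor MCL1, and lower their output. In bone-forming cells the family accompanies differentiation, and in fibrosis of many organs its level falls. A primary transcript is cut by Drosha into a hairpin, Dicer cuts the hairpin into a duplex, and usually 1 arm, the guide, is kept while the opposite arm is degraded.

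The mature sequences are shown because the guides share 1 seed while the opposite arms do not. All 7 assays matched a RefSeq mature miRNA (GRCh38.p14), and bases 2 to 8, the seed, are in capitals.
hsa-miR-29a: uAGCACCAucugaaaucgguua
hsa-miR-29b: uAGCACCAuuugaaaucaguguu
hsa-miR-29c: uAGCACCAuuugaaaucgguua
hsa-miR-29a*: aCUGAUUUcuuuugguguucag
hsa-miR-29b-1*: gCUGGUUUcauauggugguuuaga
hsa-miR-29b-2*: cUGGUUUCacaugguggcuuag
hsa-miR-29c*: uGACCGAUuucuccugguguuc
The guide seed AGCACCA was held by 3 of 2370 human mature miRNAs in the RefSeq table, the 3 guides themselves, and each opposite arm had a seed found in no other entry. Counted from the 5′ end, miR-29a and miR-29c differ by 1 substitution, C10U. miR-29a and miR-29b differ over their first 22 bases by C10U, G18A, U21G and A22U. The miR-29b-1* and miR-29b-2* sequences are also closely alike once shifted along by a base. Whether the miR-29a and miR-29c assays, or the miR-29b-1* and miR-29b-2* assays, read each other's target was not tested.

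The family comes from 4 hairpins at 2 places in the genome, shown with both mature arms in capitals, because the miR-29b assay alone reads the product of both places.
MIR29A: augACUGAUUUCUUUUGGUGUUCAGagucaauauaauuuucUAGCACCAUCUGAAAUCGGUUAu
MIR29B1: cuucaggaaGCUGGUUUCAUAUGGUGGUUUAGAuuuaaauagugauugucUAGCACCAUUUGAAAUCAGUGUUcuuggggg
MIR29B2: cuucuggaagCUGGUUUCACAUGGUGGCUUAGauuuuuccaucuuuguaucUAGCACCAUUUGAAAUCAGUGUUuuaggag
MIR29C: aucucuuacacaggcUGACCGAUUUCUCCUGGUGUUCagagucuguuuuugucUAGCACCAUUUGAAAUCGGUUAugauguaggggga
In GRCh38.p14, MIR29A lies at chr7:130876747-130876810 and MIR29B1 at chr7:130877459-130877539, both on the minus strand and 648 bases apart, inside no other gene of the RefSeq table. MIR29C at chr1:207801852-207801939 and MIR29B2 at chr1:207802443-207802523 lie 503 bases apart on the minus strand, within the span of the long noncoding RNA gene MIR29B2CHG. Whether they fall in its exons or introns was not analysed here. The miR-29b guide has the same sequence in MIR29B1 and MIR29B2, so its assay cannot tell them apart. Each opposite arm belongs to 1 hairpin by sequence, but whether the miR-29b-1* and miR-29b-2* assays separate their 2 hairpins was not tested.

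Each assay gave 1 quantification cycle (Ct) per sample, and an earlier Ct means more RNA. The assays are spread over 2 plates: miR-29a, miR-29b, miR-29c and miR-29b-2* on panel I, and miR-29a*, miR-29b-1* and miR-29c* on panel II. A Ct under 35 was found in 723 to 732 of the 740 miRNA wells of the knockdown pair, but in 521 of untreated and 591 of NCS-treated cells. The mean Ct of the wells under 35 in every sample was 25.8 for shNS, 26.1 for shDDX1, 30.1 for untreated and 29.4 for NCS, so ratios stay within a pair, and across pairs only gaps between wells of 1 plate are set side by side. Water wells read as early as Ct 26.6 in shNS and 26.5 in shDDX1, and none read in the other pair. Since each group is a single sample, no difference below could be tested or set against replicates. The spread available is technical, from 7 assays on both panels: a log2 ratio had an SD of 0.38 for the knockdown and of 0.79 for NCS. These assays are miR-103, miR-191, miR-423-5p, the small RNAs U6, SNORD38B and SNORD49A, and the control UniSp6 CP. Whether this SD covers differences between the columns of a plate was not tested, so multiples of it below are descriptions. In RNA from bulk cultures, fewer cells with a miRNA and less of it per cell cannot be told apart.

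Of the listed markers, 5 of 5 mesenchymal miRNAs (miR-143, miR-145, miR-199a-3p, miR-199a-5p, miR-214) read under 35 in every sample, between Ct 21.4 and 24.8 in shNS. The 5 epithelial markers, the guides of the miR-200 family, read between 27.1 and 30.8 there, and liver miR-122 read 28.6. Blood cell markers read from 25.7 to 28.4, muscle markers from 27.8 to 29.6 and of the 2 neuronal markers miR-9 read 22.6 and miR-124 27.5 in shNS. The 5 epithelial, 2 neuronal and 1 liver markers also read under 35 in every sample, so this does not set the mesenchymal markers apart. In untreated cells 4 of 5 blood cell markers and 1 of 4 muscle markers read under 35, and miR-1 and miR-206 were undetermined. The shift of these lists within a pair is given with the comparisons.

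The 3 guides were among the earlier assays of every sample, and their order was the same in 3 of the 4 samples. miR-29a read Ct 20.2 in shNS and 20.4 in shDDX1, then 25.2 without and 24.6 with NCS. It was the earliest member throughout and ranked from 26 to 48 among all assays. miR-29c read Ct 20.4, 21.3, 26.3 and 25.2 in the same order of samples. miR-29b read 22.3, 20.8, 27.5 and 27.2, and was the latest guide in all samples but shDDX1. Ct values of different assays depend also on each assay's efficiency, which is not given in the sources used here, so this order is a description of the readings.

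**Figure D1:**
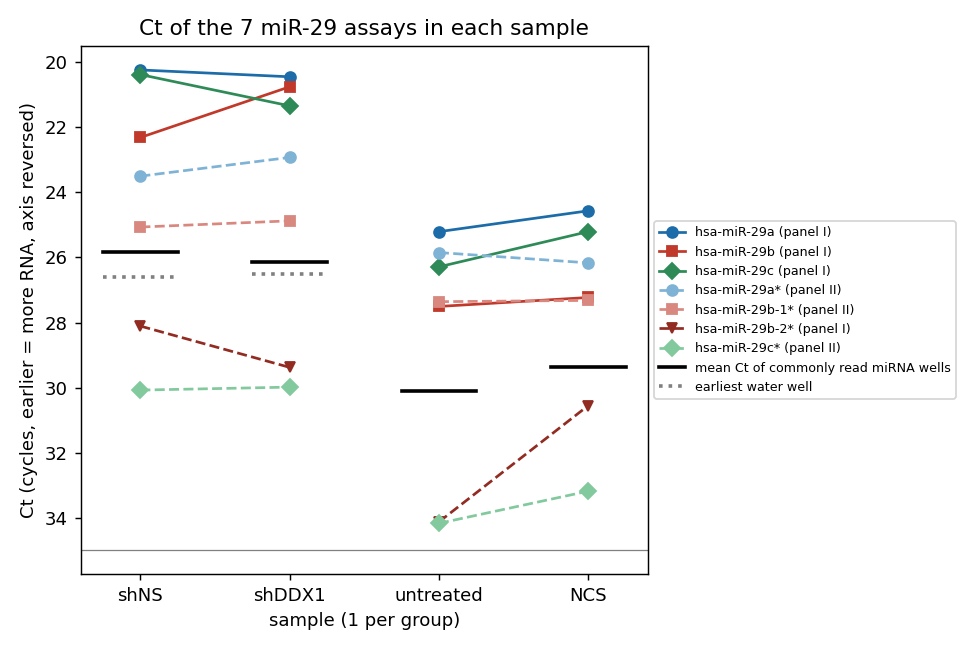
Ct of each miR-29 assay (vertical axis, cycles, reversed) in the 4 samples (horizontal axis), with solid lines for guides and dashed lines for opposite arms joining the samples of a pair. Black bars are the mean Ct of commonly read miRNA wells, dotted bars the earliest water well and the thin line Ct 35; miR-29b moved from 22.3 in shNS to 20.8 in shDDX1, and miR-29b-2* from 34.1 in untreated to 30.6 in NCS-treated cells.

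The opposite arms spanned a wide range of Ct. miR-29a* read 23.5 in shNS and 22.9 in shDDX1, 25.8 without and 26.2 with NCS, and was the earliest opposite arm in each. miR-29b-1* read 25.1, 24.9, 27.4 and 27.3. miR-29b-2* read 28.1, 29.4, 34.1 and 30.6, and miR-29c* was the latest at 30.1, 30.0, 34.2 and 33.2. In the knockdown pair these last 2 arms read later than the earliest water well of their own panel, by 0.35 cycles in shNS and 2.09 in shDDX1 for miR-29b-2* and by 3.48 and 3.49 cycles for miR-29c*, so their part of background signal there was not tested. The other 5 members read before it in both samples, miR-29b-1* by the least, with Ct 25.1 and 24.9 against 26.6 and 26.5.

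Knockdown of DDX1 was set against the control shRNA first. miR-29b was 3.64-fold higher in shDDX1, with a log2 ratio of 1.86, and it was the 1 member past 2-fold. Of the 7 members 1 was higher and 0 were lower, while of the 716 quantified miRNAs 11% passed 2-fold upwards and 17.3% downwards. The members' median log2 ratio was 0.40, against 0.04 over all quantified miRNAs. With each panel centred the 2 medians were 0.06 and 0.02.

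miR-29a, the guide that is made next to miR-29b-1 on chromosome 7, had a log2 ratio of 0.09. Its Ct was 20.2 in shNS and 20.4 in shDDX1, and the ratio was smaller than the technical SD of 0.38. miR-29c, the guide made next to miR-29b-2 on chromosome 1, was at -0.66, or 1.58-fold lower, and its Ct moved from 20.4 to 21.3. The miR-29b value was 4.84 times the technical SD, that of miR-29c 1.71 times and that of miR-29a 0.24 times. miR-29b and miR-29c, which share their seed, thus lay on opposite sides of 0 in the same pair of samples. The miR-29c value lay near its surroundings, however. The panel I median was -0.42 and that of the 24 quantified wells around miR-29c was -0.55. After the latter was subtracted miR-29c stood at -0.11, and with each panel centred at -0.24.

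miR-29b stood apart on its plate. The ratio was the third highest of 366 quantified wells on panel I, where 2.73% passed 2-fold upwards and 29% downwards, with a median of -0.42. Its well lies in the middle columns (7 to 18) of panel I, where 1.62% of wells were higher, 41.1% were lower and the median was -0.82. Among the 24 quantified wells within 2 rows and 2 columns of it, 14 were at least 2-fold lower and 0 were higher, and the highest of them was at 0.03. Set against the median of those wells, -1.18, the miR-29b ratio was 3.05. With each panel centred separately it was 4.88-fold higher and still the 1 member past 2-fold, where 7.82% of all miRNAs were higher and 15.6% lower.

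The call held in each of 8 scalings, from a log2 ratio of 1.20 with the small nuclear and nucleolar RNAs as reference to 2.29 with each panel centred. In the authors' deposited fold table miR-29b stood at 2.95-fold over shNS, the same value as without centring. By contrast miR-29a was above 0 in 4 of the 8 scalings, between -0.57 and 0.52, and past 2-fold in 0 of them. miR-29c was below 0 in 8 of 8 and at least 2-fold lower in 2, those on the small RNAs and on the reference miRNAs, at -1.32 and -1.12.

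The spacing of the guides on the plate gives the same comparison without any centring, since these wells share a plate and a sample. miR-29b read 2.08 cycles after miR-29a in shNS and 0.31 cycles after it in shDDX1. The gap was 2.30 cycles without and 2.66 cycles with NCS. The gap in shDDX1 was thus the smallest of the 4, and the other samples lay between 2.08 and 2.66. miR-29c followed miR-29a by 0.14, 0.89, 1.08 and 0.64 cycles. Against miR-29c, miR-29b was later by 1.93 cycles in shNS, 1.22 without NCS and 2.02 with it, and in shDDX1 it was earlier, with a difference of -0.59 cycles. The miR-29b ratio exceeded that of miR-29c by 2.52 and that of miR-29a by 1.77, where the technical SD of such a difference is 0.54. That SD includes a difference between plates, which these gaps do not contain.

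**Figure D2:**
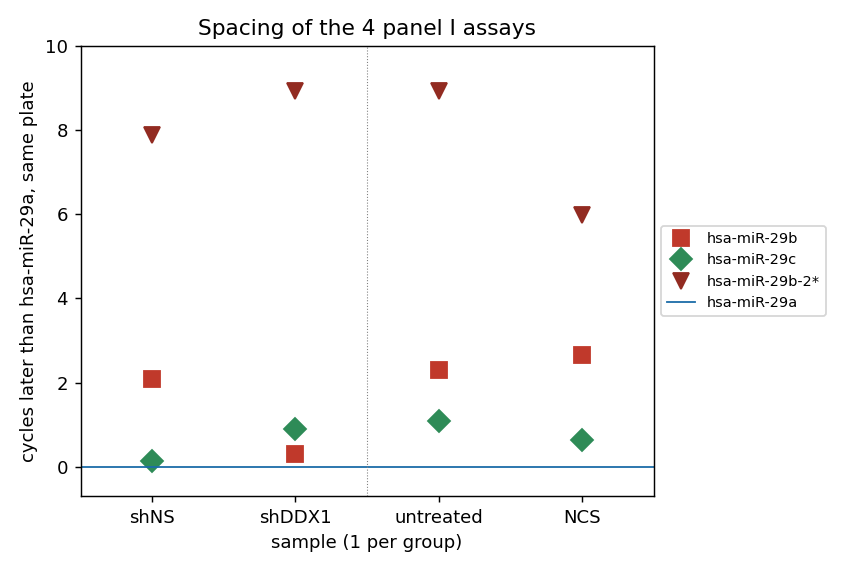
Cycles by which miR-29b, miR-29c and miR-29b-2* read later than miR-29a (horizontal line at 0) on the same panel I plate, for each of the 4 samples, 1 point per assay and sample. miR-29b lies 0.31 cycles after miR-29a in shDDX1 and between 2.08 and 2.66 in the other samples, and miR-29b-2* lies 5.99 cycles after it in NCS-treated cells and between 7.87 and 8.93 in the others. In shNS and shDDX1 miR-29b-2* read later than a water well of its plate.

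The opposite arms of the hairpins that make miR-29b were within 2-fold in shDDX1. miR-29b-1*, from chromosome 7, had a log2 ratio of 0.49, close to the panel II median of 0.46, and of 0.06 with each panel centred. miR-29b-2*, from chromosome 1 and read on the same plate as miR-29b, was at -0.96, just short of 2-fold lower. The gap between miR-29b-2* and miR-29b was 5.80 cycles in shNS and 8.63 in shDDX1. Because miR-29b-2* read later than a water well of its own plate in both samples, no fold of guide over opposite arm is given. miR-29b-2* was below 0 in each of 8 scalings, between -1.63 and -0.54, and at least 2-fold lower in 4 of them. It lay near its surroundings: the median of the 24 wells around it was -1.38, and after that median was subtracted it stood at 0.41. miR-29b is itself 1 of those 24 wells and the highest of them.

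miR-29a* and miR-29c* were both within 2-fold in shDDX1 under the common centring. miR-29a* had a log2 ratio of 0.88, and 0.45 with each panel centred, and was above 0 in 8 of 8 scalings and past 2-fold in 1, at 1.07 when centred on the wells under 35 in the pair. miR-29c* was at 0.40, or -0.04 with each panel centred, and above 0 in 4 of 8 scalings. On panel II 19.8% of 353 wells were at least 2-fold higher and 5.1% lower. The guide over opposite arm changed by -0.79 for miR-29a, but by 0.07 with each panel centred. None is given for miR-29c, since miR-29c* read later than a water well of its plate. The miR-29a guide and arm were read on different plates, and the difference between the plates and a change of the arms cannot be told apart from these values.

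**Figure D3:**
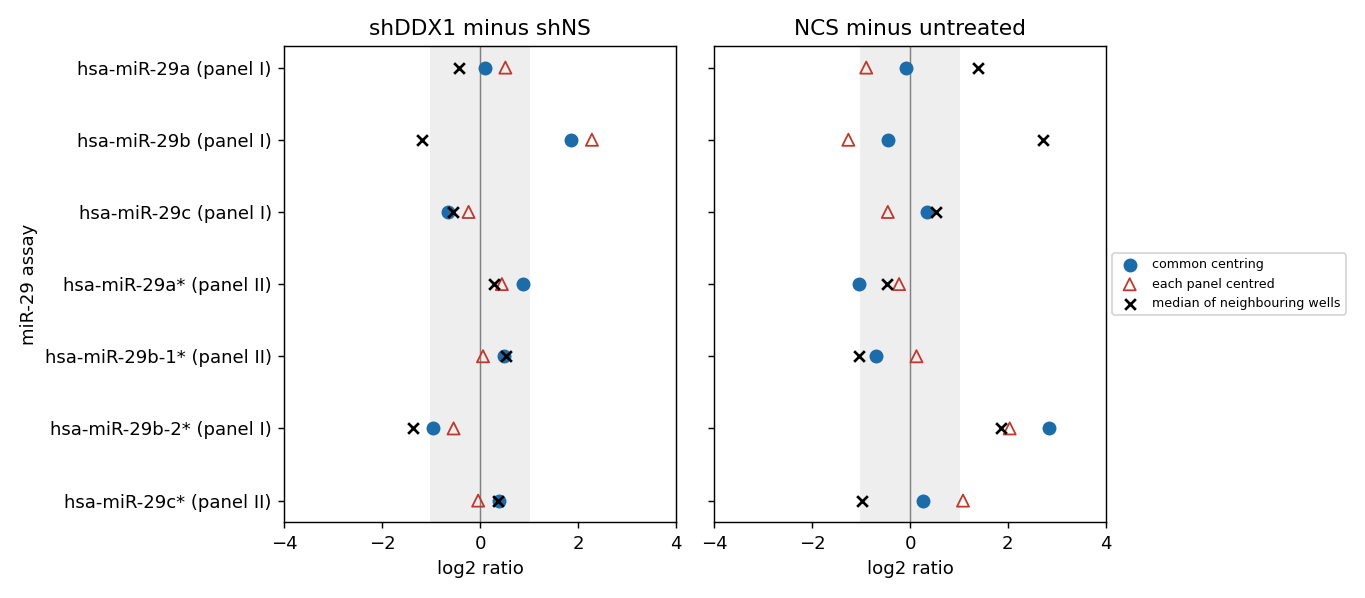
Log2 ratio (horizontal axis) of each miR-29 assay in the knockdown pair (left) and the NCS pair (right), with the grey band marking changes under 2-fold. Filled circles use the common centring, open triangles centre each panel separately and crosses are the median of the quantified wells within 2 rows and 2 columns; miR-29b lies at 1.86 in shDDX1 against -1.18 for its neighbours, and miR-29b-2* at 2.84 after NCS against 1.86.

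NCS treatment was then set against untreated cells. miR-29b-2* was 7.17-fold higher after NCS, with a log2 ratio of 2.84, and miR-29a* was 2.07-fold lower, at -1.05. Of the 7 members 1 was thus at least 2-fold higher and 1 lower. Among the 498 quantified miRNAs 16.9% were higher and 22.3% lower. The members' median was -0.09, against -0.38 over all quantified miRNAs. With each panel centred the 2 medians were -0.22 and -0.20. None of the 3 guides passed 2-fold under the common centring.

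Among the guides, miR-29a was at -0.09, miR-29b at -0.46 and miR-29c at 0.35 after NCS, each smaller than the technical SD of 0.79. The 2 wells of miR-423-5p, 2.71 apart, make up most of that SD; without them it is 0.35, which miR-29b exceeds. Their sign depended on the scaling: miR-29a was above 0 in 3 of 8 scalings, miR-29b in 2 and miR-29c in 7. miR-29a past 2-fold was seen in 0 of the 8. miR-29b was at least 2-fold lower in 1, at -1.26 with each panel centred, and miR-29c at least 2-fold higher in 2, up to 1.14 against the small RNAs. Within the plate, the gap from miR-29a to miR-29b went from 2.30 to 2.66 cycles and that from miR-29a to miR-29c from 1.08 to 0.64. Both changes, 0.37 and 0.44 in size, were below the technical SD of 1.12 for a difference.

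The guides' wells on panel I lay among wells that read earlier after NCS. On that panel 30.4% of 253 quantified wells were at least 2-fold higher and 4.74% lower, and in the middle columns 55.8% of 113 were higher, with a median of 1.21. miR-29a and miR-29b lie in those columns, and miR-29c in column 20. Of the 15 quantified wells around miR-29b 11 were at least 2-fold higher and 1 lower, with a median of 2.72, so after subtraction of that median miR-29b stood at -3.18. For miR-29a, 10 of 15 surrounding wells were higher and 14 of the 15 lay above its own ratio, and it stood at -1.48 after subtraction. miR-29c stood at -0.18. The part of the plate position in these values was not tested.

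The higher miR-29b-2* value rests on a late reading. Its Ct was 34.1 in untreated cells, near the limit of 35, and 30.6 after NCS. It was at least 2-fold higher in each of 8 scalings, from a log2 ratio of 2.04 with each panel centred to 3.63 against the small RNAs, and the authors' deposited fold table gives 10.7-fold. On panel I it ranked 30 from the highest among 253 wells. The median of the 17 quantified wells around it was 1.86, and after subtraction miR-29b-2* was at 0.98, just under 2-fold. With a limit of Ct 32 it was not quantified. Against miR-29b on the same plate, its lag shrank from 6.62 to 3.32 cycles. The miR-29b reading over that of miR-29b-2* was thus 9.83-fold lower after NCS. This is a log2 change of -3.30, where the technical SD of a difference is 1.12. The miR-29b assay reads both hairpins, so this is not the ratio of 1 hairpin. Over miR-29b-1*, on the other plate, miR-29b changed by 0.24, or by -1.39 with each panel centred. The lag of miR-29b-2* behind miR-29c, the guide of the neighbouring hairpin, was 5.35 cycles in NCS-treated cells. In the other 3 samples it was between 7.73 and 8.04 cycles. Of these, shNS and shDDX1 are samples where miR-29b-2* read later than a water well of its plate. The 2 wells also differ in position: miR-29b-2* lies in the middle columns, with a median of 1.21 after NCS. miR-29c lies in the outer columns of panel I, with a median of -0.16. The part of position in this lag was not tested.

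The 3 opposite arms on panel II had smaller ratios. miR-29b-1* was at -0.69 after NCS, but its Ct moved only from 27.4 to 27.3, and with each panel centred it was at 0.13. miR-29a* was at -1.05 under the common centring and -0.22 with each panel centred. It was below 0 in 8 of 8 scalings and at least 2-fold lower in 3. miR-29c*, with Ct 34.2 and 33.2, was at 0.26 under the common centring and at 1.08, or 2.12-fold higher, with each panel centred. It was above 0 in 8 of 8 scalings and at least 2-fold higher in 3. On panel II 39.9% of 248 wells were at least 2-fold lower and 3.23% higher, with a median of -0.84. With each panel centred 13.7% of all miRNAs were higher and 20.5% lower. Of the members, miR-29b-2* and miR-29c* were then higher and miR-29b was lower.

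**Figure D4:**
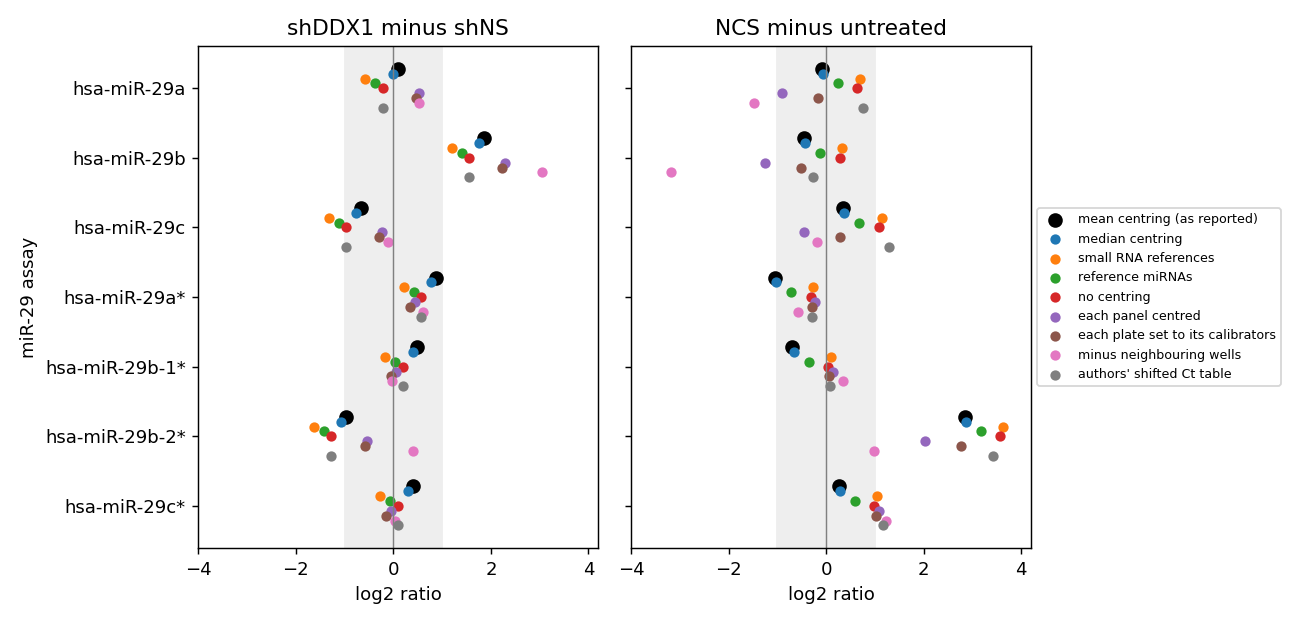
Log2 ratio (horizontal axis) of each miR-29 assay under the reported mean centring (large black point) and 8 other ways of scaling or correcting, for the knockdown pair (left) and the NCS pair (right), with the grey band marking changes under 2-fold. miR-29b lies above 1 at every point in the knockdown pair, from 1.20 to 3.05, and miR-29b-2* lies between 0.98 and 3.63 in the NCS pair.

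The authors' deposited table of shifted Ct treated the pairs differently for these assays. In the knockdown pair all 4 panel I members were moved by -0.79 cycles and all 3 panel II members by 0.79, alike in both samples. In the NCS pair the shift for miR-29b was -3.82 without NCS and -3.29 with it, but -3.49 and -3.60 for miR-29a. How this was done is not given in the sources used here. As a result the authors' deposited fold table puts miR-29b at 0.836 of untreated, while its unshifted Ct was 0.28 cycles earlier after NCS. The same deposited fold table gives 1.69 for miR-29a, 2.45 for miR-29c and 2.25 for miR-29c*.

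The members occupied different places when both comparisons were set side by side, which share no sample. miR-29b-2* lay below 0 in the knockdown and was past 2-fold upwards with NCS, as were 69 of 496 miRNAs quantified in both, 67 of them on panel I. miR-29b was at least 2-fold higher in shDDX1 and below 0 after NCS, as were 44 of 496, of which 4 were on panel I. miR-29a and miR-29c were within 2-fold in both.

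**Figure D5:**
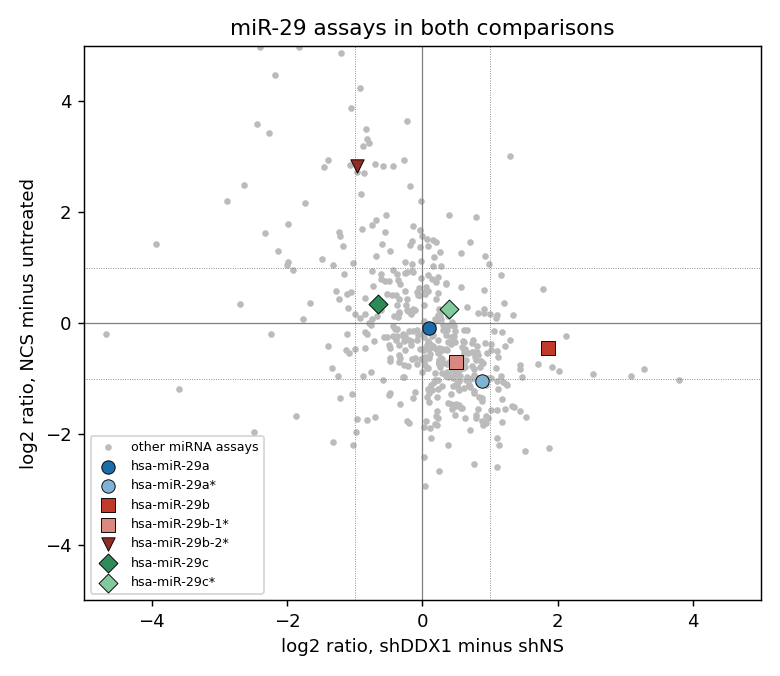
Log2 ratio in the knockdown pair (horizontal axis) against that in the NCS pair (vertical axis) for miRNAs quantified in both, with miR-29 assays as coloured symbols, other assays in grey and dotted lines at 2-fold. 14 assays lie outside the axes, and miR-29b sits at 1.86 and -0.46 while miR-29b-2* sits at -0.96 and 2.84.

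Likeness was measured as the distance between pairs of log2 ratios, over these 2 comparisons and 489 other miRNAs. Nearest to miR-29a, at distances up to 0.12, were miR-30c, miR-26a-1*, let-7d*, miR-9* and miR-605, of which miR-26a-1* and miR-605 are on panel II. Nearest to miR-29c, at distances up to 0.22, were miR-589, miR-501-5p, miR-548i, miR-31* and miR-107. miR-29b had no neighbour as close: the 5 nearest were miR-550a at 0.32, miR-99a at 0.34, miR-432* at 0.34, miR-548j at 0.43 and miR-140-3p at 0.52. Of these, miR-550a, miR-99a and miR-140-3p are panel I assays, with ratios of 1.71, 1.92 and 1.44 in shDDX1. miR-29b lies among the 11% of quantified miRNAs at least 2-fold higher in shDDX1, where assays are sparser than near 0. Whether its larger distances go beyond that was not tested. The nearness of assays on the other panel depends on the common centring: with each panel centred, 2 of the 5 named for miR-29a, 3 for miR-29b and 2 for miR-29c were still among the 5 nearest.

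Other miRNAs that act on the same processes gave a frame for the guides, and all of them were panel I assays, so their counts stand beside the panel I shares: 29% lower and 2.73% higher in shDDX1, and 4.74% lower and 30.4% higher after NCS. Of 19 miRNAs that act on matrix or fibrosis, 7 were at least 2-fold lower and 0 higher in shDDX1, with a median of -0.42, from miR-200b, a repressor of the ZEB factors, at -2.63 to miR-19b at 0.74. After NCS 11 of 17 quantified were higher and 0 lower, the median being 1.39, from miR-19b at -0.77 to miR-155 at 6.00. With each panel centred 5 were lower and 1 higher in shDDX1, and 3 lower and 5 higher after NCS, with medians of 0.00 and 0.59. Over all miRNAs of both panels the shares with that centring were 15.6% lower and 7.82% higher in shDDX1. After NCS they were 20.5% lower and 13.7% higher. These lists are not independent of earlier results. Panel I as a whole had a median of -0.42 in shDDX1, the same as this list, and of 0.30 after NCS, below the 1.39 of this list.

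Of 6 other repressors of DNA methyltransferases, 0 passed 2-fold in shDDX1, with a median of -0.41, from miR-148b at -0.82 to miR-342-3p at 0.07. After NCS 3 were higher and 0 lower, from miR-342-3p at -0.39 to miR-148b at 3.32, and with each panel centred 2 were higher and 1 lower. Of 11 repressors of RUNX2, the transcription factor of bone-forming cells, 1 was lower in shDDX1, miR-217 at -1.77, and miR-30c was highest at 0.13. After NCS 4 were higher, led by miR-34c-5p at 3.64, and miR-204 was lowest at -0.31. With each panel centred 4 were higher and 2 lower, and the median was -0.04. With that centring 13.7% of all miRNAs of both panels were higher after NCS and 20.5% lower. In shDDX1 the miR-29b ratio of 1.86 lay above the highest member of each of these 3 lists. The list members are all panel I assays, where miR-29b ranked 3 from the highest of 366 wells, so this adds nothing to that rank.

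Marker miRNAs of cell types were also all on panel I. There 29% of wells were lower and 2.73% higher in shDDX1, and 4.74% were lower and 30.4% higher after NCS. The 5 epithelial markers were all at least 2-fold lower in shDDX1, with a median of -1.49, and all higher after NCS, with a median of 1.62. With each panel centred 3 of the 5 were lower in shDDX1 and 1 of the 5 was higher after NCS. Over all miRNAs of both panels 15.6% were then lower and 7.82% higher in shDDX1, and 20.5% lower and 13.7% higher after NCS. In shNS these 5 read from Ct 27.1 to 30.8 with a median of 27.7, and the earliest water well of panel I read 27.8. In shDDX1 the earliest of the 5 read 29.4, later than the earliest water well of that panel at 27.3. Of the 5 mesenchymal markers 1 was higher in shDDX1, miR-199a-3p at 1.30, with a median of 0.03, and 2 were higher after NCS, with a median of 0.88. With each panel centred 1 was higher in shDDX1, and 2 were higher and 2 lower after NCS, where the median was 0.08. Of 5 blood cell markers 1 was higher and 1 lower in shDDX1, and of 4 quantified after NCS 1 was higher and 2 lower. Of 4 muscle markers 1 was lower in shDDX1 and the 1 quantified after NCS was at 0.90. Liver miR-122 was at -1.21 and -1.36. The neuronal pair had medians of -0.39 and 0.82. The earliest water well of panel I read 27.76 in shNS and 27.29 in shDDX1. All 4 muscle markers read later than it in both, the earliest at 27.80 and 28.40. So did miR-122, at 28.56 and 30.08, and miR-223 of the blood cell markers, at 28.44 and 28.50. miR-124 did so in shDDX1, at 28.02. The part of background signal in these knockdown ratios was not tested. The part of these shifts in the miR-29 values was not tested.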

How the data were processed

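Mature miRNAs were measured in 4 samples by SYBR Green PCR on 2 panels of 384 wells after Trizol extraction and Exiqon reverse transcription, per the labels. The authors deposited a Ct table, a table of shifted Ct and a table of the linear fold, or ratio, over the control. The 2 control columns of the deposited fold table were not used. From the deposited Ct values, each sample was centred on the mean Ct of the 67.4% of 740 miRNA wells under 35 in all samples. A log2 ratio is the control's centred Ct minus the treated sample's, on the assumption that RNA doubles per cycle. An assay is quantified where both samples read under Ct 35, and higher or lower at 2-fold.

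The members were found by name, 7 assays of which 5 had been listed beforehand. miR-29b-1* and miR-29c* are the other 2. The members, the lists, the markers and the naming rule (the members, the 5 assays nearest each guide, the ends of each list) were chosen with earlier results of these data known. Star names were matched to RefSeq 5p names by hand. PCR cycles carry no read depth, so no counting interval was computed. Python 3.11.15, numpy 2.4.6 and pandas 2.3.3 were used, and the ratio step was tested on simulated data. That simulation held no difference between panels or columns, so it does not show how the ratio step handles them. Alternatives were other centrings, Ct limits, thresholds, efficiency, the deposited tables and surrounding wells.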

Additional observations from a re-analysis of the deposited data

Results flagged for a closer look

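Water wells gave a signal although they hold no sample: 6 of 9 read a Ct in shNS and 7 of 9 in shDDX1, against 0 in untreated and 0 in NCS-treated cells. They bear on miR-29b-2* and miR-29c*, the 2 members that read later than the earliest of these wells in the knockdown pair.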

How the results depend on the processing

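No paired analysis was possible because no group holds more than 1 sample. The members' median in shDDX1, 0.40, was -0.27 against small RNAs, -0.069 against reference miRNAs and -0.052 after calibration of every plate. For panel I members alone it was -0.28, and after subtraction of the median of the same panel and column zone -0.012; both settings were chosen after the data were seen, as was the use of the 5 listed members, which gave 0.09. After NCS the median of -0.09 was 0.76 in both deposited tables. The change of miR-29a over miR-29a* went from -0.79 to 0.072 in shDDX1 and from 0.96 to -0.67 after NCS with each panel centred. miR-29b in shDDX1 passed 2-fold in 16 of 16 alternatives to its value, between 1.20 and 3.05, and missed a 4-fold threshold. Not all of these are separate checks. The other Ct limits left its value at 1.86, and both deposited tables gave 1.56, as no centring did. miR-29b-2* after NCS passed 2-fold in 14 of 15, the exception being subtraction of surrounding wells. A limit of Ct 37 and no limit left its value at 2.84, and at Ct 32 it was not quantified. miR-29a* after NCS passed 2-fold in 5 of 16, and at an efficiency of 90% per cycle it did not. For miR-29a* the other Ct limits left the value at -1.05. The remaining passes were median centring at -1.02 and centring on the wells under 35 in the pair at -1.05. The cause of these shifts was not tested. The technical SDs of 0.38 and 0.79 were 0.32 and 0.35 without miR-423-5p, a setting also chosen after the data were seen. Ct near 35 in untreated cells limits miR-29b-2* and miR-29c*.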
